A study of Mus musculus with 12 samples.

Results

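The transcripts described here are those of 12 genes, of 24453 in the deposited gene table, that were at or near 0 in PNPase knockout clone 1 (PKO-1) and were present in every other mouse embryonic fibroblast (MEF) library. They were chosen on the measured values themselves, as genes with at most 0.1 CPM (counts per 1000000 counts of the library) in all 3 PKO-1 libraries and at least 0.5 CPM in all 9 other libraries, after chromosomes X and Y and gene symbols with certain beginnings, such as Hox, Col, Itg, Wnt and Hist, were left out. These beginnings do not cover whole families, and Lmx1b, a homeodomain gene, and Fbn2, a matrix gene, were kept. CPM, which scales libraries of unequal depth to each other, is taken over the sum of all counts of the library other than Rn45s, the ribosomal RNA precursor. Total RNA depleted of ribosomal RNA was sequenced from 4 lines with 3 replicates each, 12 libraries in all.

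All 4 lines were C57BL6/J MEFs carrying Pnpt1 neo-flox/neo-flox, immortalised with the SV-40 large T antigen and fed 50 µg/mL uridine. TM6 was the parental, untreated line. The rho0 line was TM6 kept for 3 weeks in 750 ng/mL ditercalinium dichloride dihydrochloride, which removes mitochondrial DNA, and then grown from a single cell colony. PKO-1 (clone 1) and PKO-6 (clone 6) were single cell colonies of TM6 infected with an adenovirus that expresses Cre recombinase (Ad-Cre), which deletes exon 2 of Pnpt1, the gene of the mitochondrial exoribonuclease PNPase. Each of rho0, PKO-1 and PKO-6 was therefore 1 clone, its 3 replicates were cultures of that clone, and what belongs to the treatment and what belongs to the clone cannot be told apart. The spread between replicates below is the spread between cultures.

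A line grown from 1 cell passes on the expression state of that cell as well as its genome. Most vertebrate genes can be held inactive for many divisions by methylation of CpG dinucleotides at the promoter, by Polycomb or heterochromatin proteins on the histones, or can be lost with the DNA itself, and RNA-seq sees only that the transcript is missing. Genes dispensable for growth in culture can differ in this way between sister clones. In bulk libraries such as these, fewer expressing cells and less RNA per cell cannot be told apart.

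Library totals ran from 47164860 to 67991378 counts, of which Rn45s took 12.2% to 19.6%. In PKO-1, 0.1 CPM corresponded to 4.10 to 4.62 counts, so genes near that cutoff were kept out or let in by a few reads. Pnpt1 was at 64.5 ± 4.54 CPM (SD, n = 3) in TM6, 112.5 ± 7.34 in rho0, 25.6 ± 1.37 in PKO-1 and 42.2 ± 6.27 in PKO-6, and these gene counts include the exons that Cre leaves in place. Of 12 fibroblast markers, 8 to 10 were at 0.5 CPM or more in every library of a line, with sums of 7847 to 13379 CPM. Thy1 and Postn were at or below 0.1 CPM in PKO-1, rho0 and PKO-6, as was Lum in rho0 and PKO-6. Of 4 blood markers Ptprc, Adgre1 and Cd3e were at or below 0.1 CPM in all 4 lines and Cd68 was at 0.5 CPM or more in every library, with sums of 1.48 to 4.41 CPM. Of 3 muscle markers Myod1 and Myog were at or below 0.1 CPM in all 4 lines, and Des was at 0.5 CPM or more in all PKO-1 and PKO-6 libraries. The 4 neural markers summed to 104.2 to 112.6 CPM in PKO-1 against 46.8 to 67.96 in the other lines, with Sox10 at or below 0.1 CPM in PKO-1, and the 6 epithelial markers to 16.8 to 17.2 CPM against 2.34 to 10.1, with Epcam, Cdh1, Krt5 and Krt14 at or below 0.1 CPM in PKO-1. The 3 mural markers summed to 121.8 to 131.9 CPM in PKO-1, within the 108.4 to 420.5 CPM of the other lines. The part of these markers in the results below was not tested.

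Before the excluded symbols and chromosomes were dropped the rule found 13 genes, the other being Rgag4 on chromosome X. The same rule with another line in the place of PKO-1 found 4 genes missing in TM6 (Car6, Cox6a2, Gm13154 and Ostn), 4 missing in rho0 (Etl4, Krt13, Rcan2 and Sh2d1b1) and 5 missing in PKO-6 (Cdyl2, Cyba, Magohb, Runx3 and Snrpn). The 12 genes lay on 10 chromosomes. The pairs on 1 chromosome, Arap2 with Wbscr17 on chromosome 5 and Fjx1 with Lmx1b on chromosome 2, were 68.3 and 68.9 Mb apart. Their median span was 40346 bp against 21150 bp for the 14019 tested genes placed on a chromosome, and 2 of the 12, Eid2 and Fjx1, have a single exon, as do 3.91% of tested genes.

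Promoter sequence is shown for the 4 genes with the highest mean CPM in TM6, rho0 and PKO-6 that may be printed here, since the genes were chosen for complete loss of the transcript and the promoter is where CpG methylation would act. The sequences are the 250 bases before the annotated start (RefSeq, GRCm38.p6), read 5′ to 3′ on the strand of the gene, with every CpG in capitals. Arap2 (minus strand) is at chr5:62766178-62766427, Wbscr17 (minus strand, named Galnt17 in RefSeq) at chr5:131307523-131307772, Eid2 (plus strand) at chr7:28267631-28267880 and Klf12 (minus strand) at chr14:100149797-100150046.
Arap2: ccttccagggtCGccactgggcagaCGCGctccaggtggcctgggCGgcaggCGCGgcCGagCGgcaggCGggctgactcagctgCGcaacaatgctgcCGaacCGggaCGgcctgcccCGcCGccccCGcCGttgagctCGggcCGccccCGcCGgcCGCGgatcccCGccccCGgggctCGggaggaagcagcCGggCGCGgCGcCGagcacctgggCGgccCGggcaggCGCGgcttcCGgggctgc
Wbscr17: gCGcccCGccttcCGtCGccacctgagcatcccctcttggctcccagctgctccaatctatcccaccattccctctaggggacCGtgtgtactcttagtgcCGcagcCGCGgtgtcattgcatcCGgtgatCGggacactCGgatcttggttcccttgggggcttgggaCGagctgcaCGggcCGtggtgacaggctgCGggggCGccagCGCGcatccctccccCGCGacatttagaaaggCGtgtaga
Eid2: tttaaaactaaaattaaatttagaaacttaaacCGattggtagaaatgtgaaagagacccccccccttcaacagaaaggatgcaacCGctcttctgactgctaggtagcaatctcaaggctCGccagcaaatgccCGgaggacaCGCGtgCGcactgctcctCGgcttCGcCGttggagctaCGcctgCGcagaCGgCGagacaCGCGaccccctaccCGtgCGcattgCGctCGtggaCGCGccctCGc
Klf12: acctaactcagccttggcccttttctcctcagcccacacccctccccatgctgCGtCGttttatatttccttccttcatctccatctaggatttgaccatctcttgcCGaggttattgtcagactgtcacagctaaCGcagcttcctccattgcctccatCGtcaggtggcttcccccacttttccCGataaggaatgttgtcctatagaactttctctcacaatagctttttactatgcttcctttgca

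These windows hold 36 CpG in Arap2, 21 in Wbscr17, 23 in Eid2 and 6 in Klf12. Over the longer window of 250 bases before to 50 after the start, which was matched by start position for 8 of the 12 genes and for 9401 tested genes, the CpG observed over expected ratio had a median of 0.763 in the 8 genes and 0.758 in the tested genes. It ran from 0.426 in Klf12, 0.460 in Cers4 and 0.467 in Apobec3 through 0.746 in Slc1a6, 0.779 in Wbscr17, 0.893 in Dcp1b and 0.940 in Arap2 to 1.22 in Eid2. A ratio of 0.6 or more was found in 5 of the 8 (62.5%) and in 70.6% of tested genes. The genes thus have both CpG-rich and CpG-poor promoters, much like the other tested genes.

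**Figure D1:**
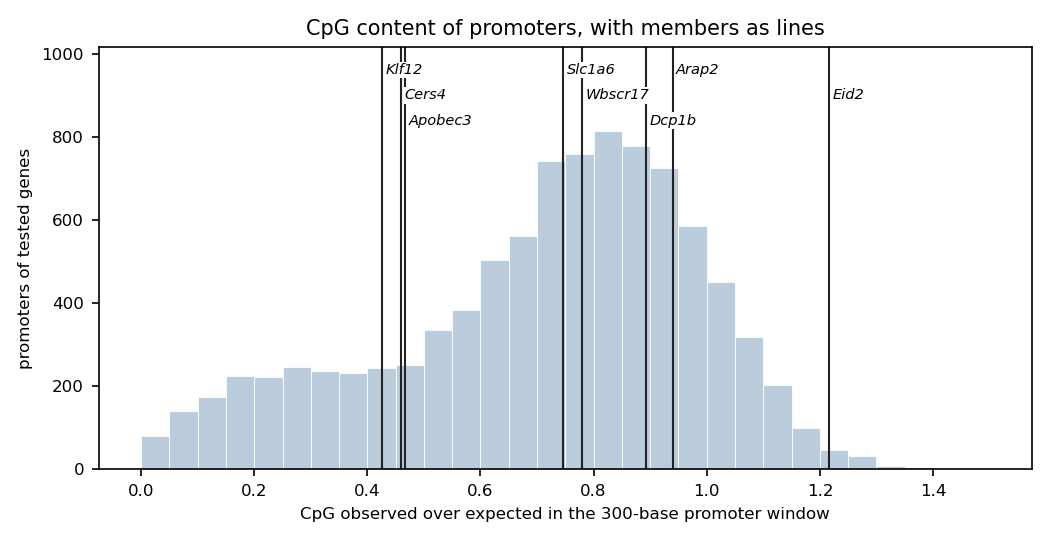
CpG observed over expected in the 300-base promoter window (x axis) against the number of tested genes in each bin of 0.05 (y axis, bars), with the 8 matched genes as vertical lines. Klf12, Cers4 and Apobec3 stand between 0.426 and 0.467, and the other 5 between 0.746 and 1.22.

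Of 5 motifs sought on both strands of the same 300-base windows, none of which contains another, GGGCGG was in the windows of Arap2, Cers4 and Slc1a6 and in 64.0% of all matched promoters. CCAAT was in those of Eid2 and Wbscr17, against 39.5% of all. TATAAA was in that of Klf12, against 7.31% of all, and CACGTG in that of Slc1a6, against 10.1% of all. TGACGTCA was in none of the 8 and in 3.15% of all. No motif was in more than 3 of the 8 windows.

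The PKO-1 values chose the genes and are given as a description. Cers4, Eid2 and Klf12 had 0 counts in all 3 PKO-1 libraries, and the other 9 genes had 2 to 9 counts summed over them. With a floor of 3 counts over the 3 PKO-1 libraries, the level of Eid2 in PKO-1 was at least 156.3-fold lower than that in PKO-6, the lowest of the other lines. Klf12 was at least 109.2-fold lower than in TM6, its lowest other line, and Cers4 at least 62.5-fold lower than in PKO-6. For the others the ratio to the lowest other line ran from 21.6-fold for Inha (95% exact interval 8.18 to 80.8, counting error only) to 80.0-fold for Apobec3 (31.0 to 295.3).

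**Figure D2:**
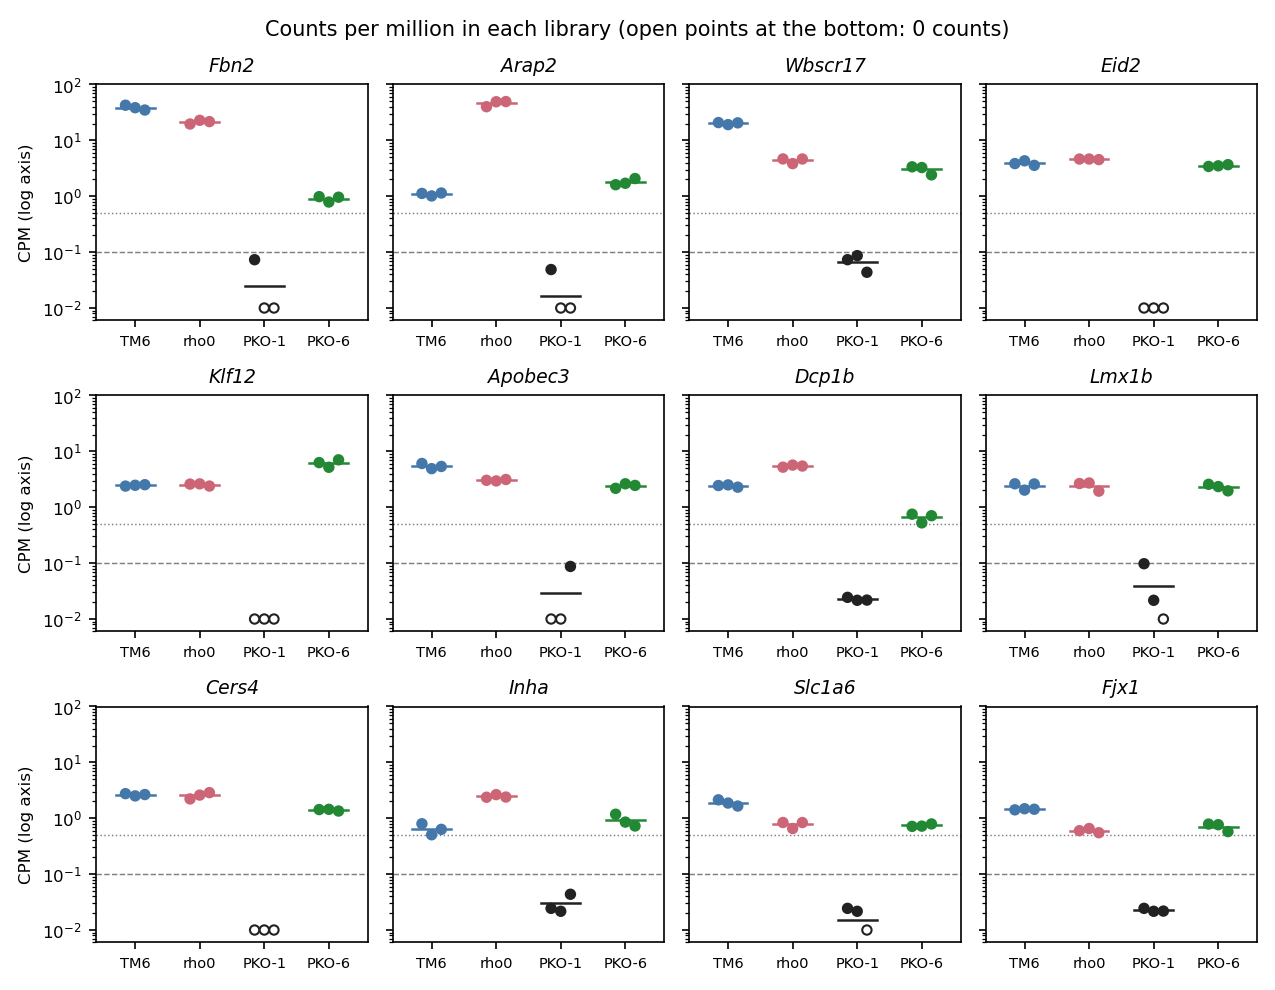
CPM of each of the 12 genes (panels) in each library (points, log axis) by line, with the mean of 3 as a short bar, the 0.1 CPM cutoff dashed and the 0.5 CPM cutoff dotted. Open points drawn at the bottom are libraries with 0 counts. The PKO-1 points lie between 0 and 0.0977 CPM, and among the other lines the levels span from 0.507 CPM (Inha in TM6) to 49.5 CPM (Arap2 in rho0).

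The members closest to the cutoffs were Inha, with 0.507 CPM in its lowest library outside PKO-1, Dcp1b, with 0.526, and Apobec3 and Lmx1b, with up to 0.0873 and 0.0977 CPM in PKO-1. Just outside were Slc52a3, a riboflavin transporter, with 0 counts in PKO-1 and 0.449 CPM in its lowest other library, and Sirpa, with 0.479 CPM. Zfp709 and Mycl missed the 0.1 CPM cutoff by a single library with 5 counts (0.108 CPM).

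By these cutoffs the transcripts were missing in clone 1 only. Whether their promoters were inactive was not measured, and they were not at 1 level elsewhere, because most of the genes also differed among TM6, rho0 and PKO-6. Those differences were not fixed by the rule, although each gene had to pass 0.5 CPM in the 9 libraries, and were tested with the edgeR quasi-likelihood test over all 14026 tested genes, in which all 12 are included. Calls needed an adjusted p under 0.01 together with a log2 fold change of more than 0.5 in either direction. The comparisons of rho0 and of PKO-6 with TM6 share the TM6 libraries.

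Between rho0 and TM6, 3 of the 12 were called higher and 5 lower, where 20.7% of tested genes were called higher and 21.4% lower. Between PKO-6 and TM6, 2 were called higher and 7 lower, against 21.9% and 19.4% of tested genes. Between PKO-6 and rho0, 1 was called higher and 6 lower, against 13.3% and 8.16%. The median log2 fold change of the 12 was -0.07 between rho0 and TM6, -1.04 between PKO-6 and TM6 and -0.48 between PKO-6 and rho0, with medians over the tested genes of 0.02, 0.01 and -0.01. Among the 11545 tested genes that pass the same 0.5 CPM floor, the shares called higher and lower were 19.7% and 20.6%, 19.9% and 18.7%, and 10.8% and 7.41% in the same order of comparisons.

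**Figure D3:**
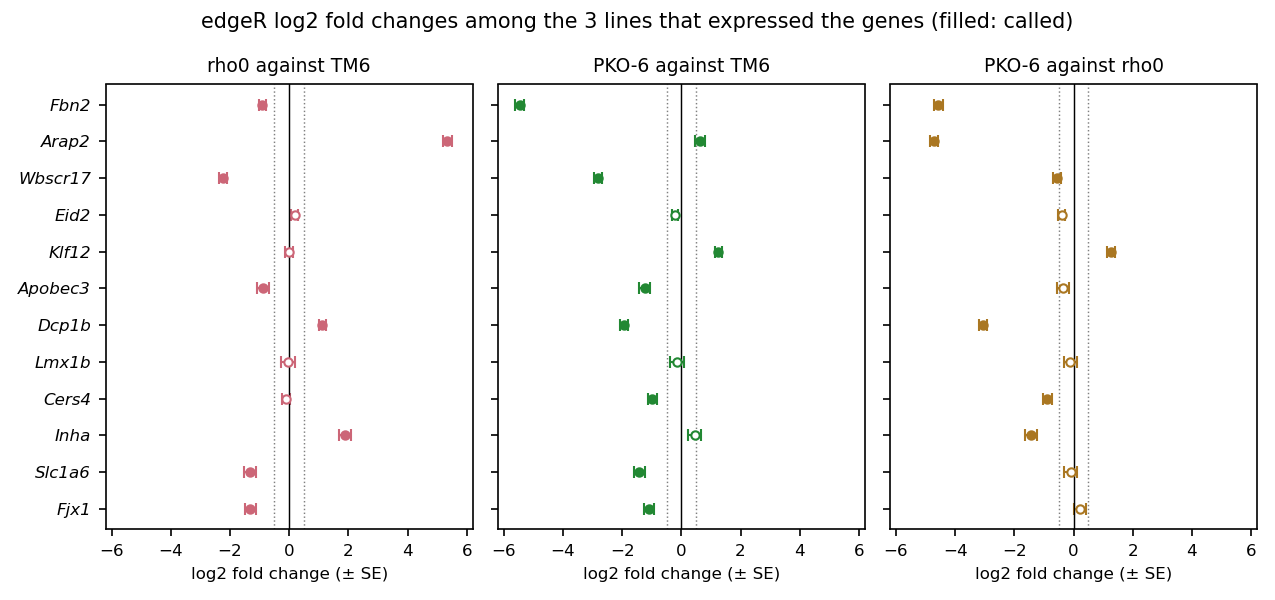
edgeR log2 fold change (x axis, points with SE bars, some smaller than the point) of each of the 12 genes (y axis) in the comparisons among TM6, rho0 and PKO-6, filled where called, with dotted lines at -0.5 and 0.5. Arap2 (5.35 in rho0 against TM6) and Fbn2 (-5.47 in PKO-6 against TM6) lie farthest from 0, and Eid2 and Lmx1b are open in all 3 panels.

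Of the genes of secreted and matrix proteins, Fbn2 encodes fibrillin 2, a glycoprotein of extracellular microfibrils, and lies on chromosome 18 (58008623 to 58209926, GRCm38, minus strand, 65 exons). Its 3 TM6 libraries were at 42.6, 38.4 and 34.9 CPM, those of rho0 at 19.6, 22.9 and 21.7, those of PKO-6 at 0.984, 0.789 and 0.962, and those of PKO-1 at 0.0732, 0 and 0. No pair of lines overlapped, and PKO-6 was the lowest of the 3 lines that the rule required to be above 0.5 CPM. Fbn2 was lower in PKO-6 than in TM6 by a log2 fold change of -5.47 (SE 0.16, adjusted p = 2.25e-12) and lower in rho0 by -0.90 (SE 0.12, adjusted p = 1.03e-05). PKO-1 was in turn 40.7-fold below PKO-6 (95% exact interval 13.6 to 199.6). Fbn1, the other fibrillin gene among the tested genes, was at 212.7 CPM in TM6, 25.4 in rho0, 48.4 in PKO-1 and 3.00 in PKO-6, so that PKO-1 kept Fbn1 at a level between those of rho0 and TM6. Eno1b, which overlaps Fbn2 on the other strand, was at 147.4 to 382.6 CPM in all libraries.

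Inha encodes the inhibin alpha subunit, which joins activin beta subunits to form inhibins. It was at 0.798, 0.507 and 0.633 CPM in TM6, at 2.38, 2.65 and 2.40 in rho0, at 1.18, 0.854 and 0.727 in PKO-6 and at 0.0244, 0.0216 and 0.0436 in PKO-1. The rho0 libraries were above all others, while TM6 and PKO-6 overlapped. Its log2 fold change was 1.88 between rho0 and TM6 (SE 0.21, adjusted p = 2.18e-06) and 0.44 between PKO-6 and TM6 (SE 0.22, adjusted p = 0.0873). Inhba, which encodes an activin beta subunit, was called lower in PKO-1 than in the mean of the other lines (log2 fold change -0.65, SE 0.05, adjusted p = 2.31e-07), at 15.8 CPM against 25.04, 25.4 and 26.0 in TM6, rho0 and PKO-6.

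Fjx1 encodes four-jointed box 1, a Golgi and secreted protein related to the Drosophila kinase that acts on Fat and Dachsous cadherins. It was at 1.41, 1.48 and 1.45 CPM in TM6, at 0.5997, 0.656 and 0.551 in rho0, at 0.787, 0.767 and 0.577 in PKO-6, and at 1 count in each PKO-1 library. TM6 lay above rho0 and PKO-6, which overlapped. Its log2 fold changes against TM6 were -1.31 in rho0 (SE 0.19, adjusted p = 2.40e-05) and -1.09 in PKO-6 (SE 0.18, adjusted p = 9.26e-05).

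Among the enzymes, Wbscr17 (Galnt17) belongs to the GalNAc transferases that start mucin-type O-glycosylation. It was at 20.8, 19.14 and 20.6 CPM in TM6, at 4.66, 3.84 and 4.65 in rho0, at 3.36, 3.26 and 2.42 in PKO-6, and at 0.0732, 0.0865 and 0.0436 in PKO-1. TM6 was the highest line without overlap, and all 3 PKO-1 libraries held some counts, 9 in all. Its log2 fold change was -2.25 between rho0 and TM6 (SE 0.13, adjusted p = 3.24e-09), -2.81 between PKO-6 and TM6 (SE 0.13, adjusted p = 3.68e-10) and -0.56 between PKO-6 and rho0 (SE 0.14, adjusted p = 0.00372). The last call was lost when PKO-6 replicate 3 (-0.42, adjusted p = 0.0127), rho0 replicate 1 (-0.51, adjusted p = 0.0104) or rho0 replicate 3 (-0.54, adjusted p = 0.0126) was left out.

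Cers4 encodes a ceramide synthase. It was at 2.76, 2.51 and 2.66 CPM in TM6, at 2.22, 2.60 and 2.88 in rho0, at 1.43, 1.45 and 1.35 in PKO-6, and at 0 in PKO-1. TM6 and rho0 overlapped and PKO-6 lay below both, with a log2 fold change of -0.98 against TM6 (SE 0.14, adjusted p = 6.94e-05) and of -0.88 against rho0 (SE 0.15, adjusted p = 0.000333). The ceramide synthases Cers2, Cers5 and Cers6 were far more abundant and were present in PKO-1 at 208.8, 99.5 and 37.2 CPM, with log2 fold changes of -0.30, -0.08 and -0.43 against the mean of the other lines that were not called. For Cers2 and Cers6 the PKO-1 libraries lay below all others, and only the fold threshold was missed (adjusted p = 2.84e-05 and 3.16e-06). Cers1, at 1.07 CPM, was called higher (1.00, SE 0.21, adjusted p = 0.000872).

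Apobec3 encodes a cytidine deaminase that restricts retroviruses. It was at 6.07, 4.91 and 5.37 CPM in TM6, at 3.04, 2.96 and 3.14 in rho0 and at 2.18, 2.63 and 2.46 in PKO-6, and in PKO-1 its only 4 counts were in replicate 3. TM6 was highest without overlap, with log2 fold changes of -0.89 in rho0 (SE 0.19, adjusted p = 0.000859) and -1.24 in PKO-6 (SE 0.19, adjusted p = 5.26e-05). In each line 100% of its counts were assigned to the transcript of 8 exons and 0 to that of 9 exons. The antisense gene D730005E14Rik, which overlaps Apobec3, was at 0 in all PKO-1 libraries and at 0.0402 to 0.326 CPM in the other 9. The kit was strand-specific, but whether strand was used in counting was not given in the sources used here.

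Arap2 encodes a GTPase-activating protein for the small GTPase Arf6. It was at 1.12, 1.01 and 1.14 CPM in TM6, at 40.1, 49.1 and 49.5 in rho0, at 1.61, 1.71 and 2.07 in PKO-6, and at 0.0488, 0 and 0 in PKO-1. The rho0 libraries stood far above all others, and PKO-6 lay above TM6 without overlap. The log2 fold change was 5.35 between rho0 and TM6 (SE 0.15, adjusted p = 2.70e-12), 0.64 between PKO-6 and TM6 (SE 0.17, adjusted p = 0.00370) and -4.71 between PKO-6 and rho0 (SE 0.14, adjusted p = 2.25e-11). The call between PKO-6 and TM6 was lost without PKO-6 replicate 2 (0.62, adjusted p = 0.0111), PKO-6 replicate 3 (0.54, adjusted p = 0.0157), TM6 replicate 1 (0.61, adjusted p = 0.0166) or TM6 replicate 2 (0.59, adjusted p = 0.0158). Dthd1, the nearest tested gene on the higher-coordinate side, was at 4.88 to 6.25 CPM in rho0, 0 in TM6 and at most 0.107 CPM in either knockout clone. Arap1 was at 28.0 to 37.3 CPM in all libraries. Arap3 was at 1.66 to 2.23 CPM in PKO-1 and was called higher there than in the mean of the other lines (0.62, SE 0.15, adjusted p = 0.00223), although PKO-6 had more, at 8.08 to 9.93 CPM.

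Among the nuclear regulators, Klf12 encodes a zinc finger repressor known for repressing the AP-2 alpha gene. It was at 2.39, 2.47 and 2.53 CPM in TM6, at 2.60, 2.62 and 2.40 in rho0, at 6.30, 5.19 and 7.06 in PKO-6, and at 0 in PKO-1. TM6 and rho0 overlapped, and the clones lay on opposite sides of them. Klf12 was the only one of the 12 called higher in PKO-6 than in rho0, by a log2 fold change of 1.26 (SE 0.13, adjusted p = 7.87e-06), and it was also higher than in TM6, by 1.25 (SE 0.13, adjusted p = 2.94e-06). Gm5801, which overlaps Klf12 on the same strand, was at 40.6 to 43.2 CPM in PKO-1, where Klf12 was at 0.

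Lmx1b encodes a LIM homeodomain factor of dorsal limb patterning, and Eid2 an inhibitor of the EP300 acetyltransferase that blocks differentiation. Neither was called in any comparison of TM6, rho0 and PKO-6. Lmx1b was at 2.03 to 2.63 CPM in TM6, 1.94 to 2.72 in rho0 and 1.97 to 2.58 in PKO-6, so that all 3 lines overlapped, with log2 fold changes of -0.15 to -0.04 (SE 0.23 in each comparison). In PKO-1 it had 4, 1 and 0 counts. Eid2 was at 3.57 to 4.31 CPM in TM6, 4.53 to 4.64 in rho0 and 3.42 to 3.68 in PKO-6, with log2 fold changes of 0.19 in rho0 and -0.22 in PKO-6 against TM6 (adjusted p = 0.155 and 0.105) and of -0.41 between PKO-6 and rho0 (SE 0.11, adjusted p = 0.0102). These are the members with the steadiest levels where they were present. Eid2b, the paralog whose single-gene interval lies 8538 bp beyond Eid2, was at 2.03 to 2.25 CPM in PKO-1 and was not called there (-0.15, SE 0.11, adjusted p = 0.234).

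Dcp1b encodes a coactivator of mRNA decapping. It was at 2.45, 2.51 and 2.29 CPM in TM6, at 5.22, 5.68 and 5.46 in rho0, at 0.751, 0.526 and 0.706 in PKO-6, and at 1 count in each PKO-1 library. No pair of lines overlapped. The log2 fold change was 1.12 between rho0 and TM6 (SE 0.12, adjusted p = 1.43e-06), -1.93 between PKO-6 and TM6 (SE 0.14, adjusted p = 2.50e-08) and -3.06 between PKO-6 and rho0 (SE 0.14, adjusted p = 7.40e-10). Dcp1a, its paralog, was at 55.6 to 60.6 CPM in PKO-1 against 46.8 to 57.3 in the other libraries, with a log2 fold change in PKO-1 of 0.16 (SE 0.04, adjusted p = 0.00247) that was under the 0.5 threshold. Of the 9 tested genes listed for decapping and mRNA decay, Dcp1a included, 0 were called in PKO-1 by edgeR or by DESeq2. Over all tested genes edgeR called 9.47% higher and 13.0% lower. At an unadjusted p below 0.05 in edgeR 5 of the 9 were higher and 3 lower, the lowest being Xrn1 (-0.46) and Edc3 (-0.40). Cacna1c, a calcium channel gene that overlaps Dcp1b on the other strand, was at 22.4 to 26.1 CPM in TM6 and at most 0.312 CPM in the other 3 lines.

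Slc1a6 encodes a high-affinity glutamate transporter. It was at 2.14, 1.87 and 1.65 CPM in TM6, at 0.840, 0.656 and 0.839 in rho0, at 0.716, 0.723 and 0.791 in PKO-6, and at 0.0244, 0.0216 and 0 in PKO-1. TM6 lay above rho0 and PKO-6, which overlapped, with log2 fold changes of -1.32 in rho0 (SE 0.20, adjusted p = 4.48e-05) and -1.42 in PKO-6 (SE 0.20, adjusted p = 2.11e-05). The tested transporters of the same family remained detectable in PKO-1: Slc1a3 at 5.40 to 5.76 CPM, Slc1a4 at 80.4 to 82.4, Slc1a5 at 68.2 to 79.3 and Slc1a7 at 0.220 to 0.349. Slc1a5, a neutral amino acid transporter, was called lower than the mean of the other lines (-0.56, SE 0.06, adjusted p = 1.53e-06), although TM6, at 46.2 to 54.9 CPM, lay below PKO-1.

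On the deposited per-length scale (TPM), the order of levels in TM6 was Wbscr17 at 7.39 ± 0.328 (SD, n = 3), Fbn2 at 5.51 ± 0.490, Eid2 at 5.20 ± 0.476, Apobec3 at 3.68 ± 0.365 and Lmx1b at 3.44 ± 0.488, and Arap2 was lowest at 0.227 ± 0.0153. The TPM ranges of Fbn2 and Eid2 overlapped, as did those of Apobec3 and Lmx1b. In rho0 Arap2 was highest, at 9.04 ± 1.40, followed by Eid2 at 5.83 ± 0.252. In PKO-6 Eid2 was highest, at 4.31 ± 0.397, and Fbn2 was lowest, at 0.117 ± 0.0153.

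Whether the genes beside the 12 were also low in PKO-1 was then asked, since neighbours were not used by the rule. For the 22 nearest tested genes by start position, 1 on each side within 1 Mb and not overlapping, the contrast was PKO-1 against the mean of TM6, rho0 and PKO-6. Of them 6 were called lower and 1 higher, with a median log2 fold change of -0.14 (5.56e-05 over all tested genes), where 13.0% of all tested genes were called lower and 9.47% higher. In 5 of the 6 the 3 PKO-1 libraries also lay below all 9 others, which was so for 7.64% of tested genes. Klf5, near Klf12, was the exception, at 13.5 to 15.4 CPM in PKO-1 and 13.2 to 16.2 in rho0.

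The gene nearest to Lmx1b, C130021I20Rik, lies 682 bp from it on the opposite strand. It was at 7.33 to 9.25 CPM in TM6, 6.48 to 7.99 in rho0, 8.26 to 9.17 in PKO-6 and 0.0216 to 0.109 in PKO-1. It thus kept within 6.48 to 9.25 CPM in the 9 other libraries and was nearly missing in PKO-1, with a log2 fold change of -6.65 (SE 0.21, adjusted p = 1.86e-11), and it missed the 0.1 CPM cutoff of the rule. Obsl1, 625 bp from Inha on the opposite strand and a gene of a cytoskeletal adaptor protein, was at 6.98 to 8.62 CPM in PKO-1 against 19.8 to 47.1 in the other libraries (-2.04, SE 0.09, adjusted p = 3.80e-10). It was reduced but not missing. Cacna2d4, 14912 bp from Dcp1b, was low everywhere, at 0 to 0.0655 CPM in PKO-1 and 0.0876 to 0.486 in the others (-2.73, SE 0.66, adjusted p = 0.00285).

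At most other members the neighbours were present in PKO-1, the exceptions being Auts2 next to Wbscr17 and Dthd1 next to Arap2. Cbx7, 7378 bp from Apobec3, was at 17.4 to 21.0 CPM in PKO-1 and at 11.0 to 22.6 elsewhere. Slc12a2, next to Fbn2, was at 117.6 to 127.7 CPM in PKO-1 and at 77.5 to 129.9 elsewhere, and neither was called. Syde1 and 2610008E11Rik, on either side of Slc1a6, were called lower by -0.68 and -0.51 on the log2 scale and remained at 83.2 to 93.1 and 20.1 to 21.8 CPM. Cd44, next to Fjx1, was called higher (0.86, SE 0.05, adjusted p = 6.17e-09). Trim44, on the other side of Fjx1, was not called (0.19, SE 0.04, adjusted p = 0.00229), but its lines differed widely. It was at 28.4 to 29.4 CPM in PKO-1, 83.0 to 85.0 in TM6, 87.5 to 95.3 in rho0 and 1.97 to 2.54 in PKO-6. Auts2, next to Wbscr17, was at 0.613 to 1.09 CPM in TM6 and at 0 in the other 3 lines.

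**Figure D4:**
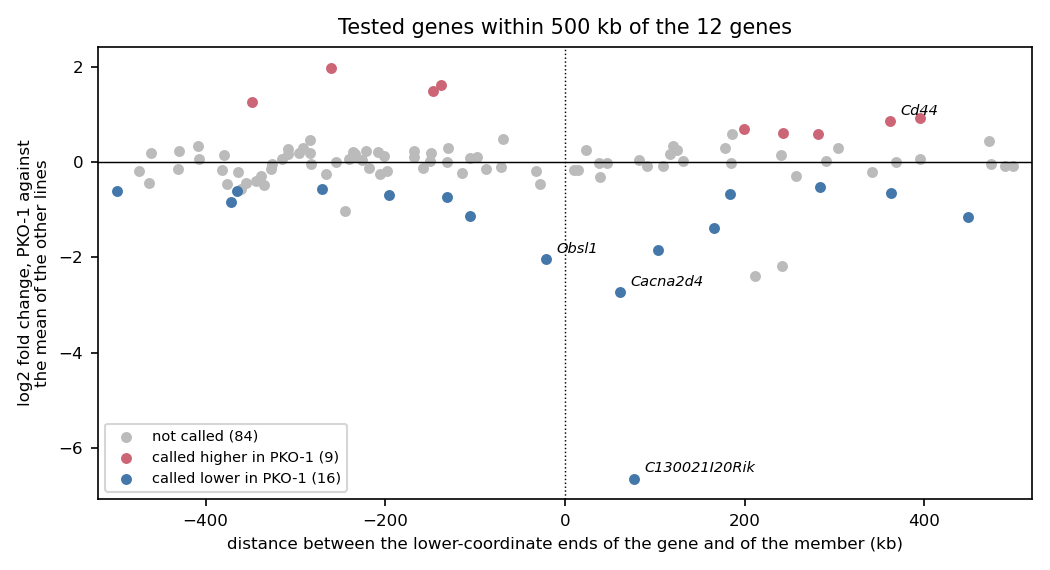
log2 fold change of PKO-1 against the mean of the other lines (y axis) for the 109 tested genes whose lower-coordinate end lies within 500 kb of that of 1 of the 12 genes (x axis, kb), coloured by call. The 16 lower and 9 higher calls lie on both sides, and only C130021I20Rik falls below -3.

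Within 500 kb of the 12 genes, 16 of 109 tested genes were called lower and 9 higher, with a median log2 fold change of -0.01, so the share called lower, 16 of 109, was near the 13.0% of all tested genes. With the further condition that all 3 PKO-1 libraries lay outside the 9 others, 13 of the 109 were lower and 3 higher, against 7.64% and 5.55% of all tested genes. The distance was taken between lower-coordinate ends, with overlapping genes left out. By it Wbscr17 and Klf12 had no tested gene within 500 kb and Arap2 had 1. Auts2, with a gap of 130160 bp to Wbscr17, and Isoc1, with 449556 bp to Fbn2, were therefore not among the 109. Around Inha 4 of 21 were called lower (Obsl1, Cnppd1, Speg and Dnajb2) and 2 higher (Ptprn and Des), and around Apobec3 4 of 26 were lower and 3 higher.

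The machinery that can hold genes inactive was looked at as a list of 54 tested genes for DNA methylation, Polycomb, heterochromatin and histone deacetylation. In PKO-1 against the mean of the other lines 2 were called higher and 3 lower, again against 9.47% and 13.0% of all tested genes, and the median log2 fold change of the list was 0.06. DESeq2 also called 2 higher and 3 lower. At an unadjusted p below 0.05 edgeR had 22 higher and 11 lower, so many genes of the list had changes too small to be called. Ezh2, the methyltransferase of Polycomb repressive complex 2, was higher by 0.59 (SE 0.04, adjusted p = 3.89e-08), with 151.4 to 159.5 CPM in PKO-1 and 82.9 to 126.8 in the others. Cbx3, a heterochromatin protein 1 family member, was higher by 0.64 (SE 0.06, adjusted p = 1.38e-06), with 423.7 to 459.6 CPM against 252.7 to 314.5. For both the PKO-1 libraries lay above all 9 others, as for 5.55% of tested genes that were called higher in this way.

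The lower calls were Dnmt3b, a de novo DNA methyltransferase, Kdm6a, a histone H3 lysine demethylase, and Ring1, a Polycomb repressive complex 1 subunit. Dnmt3b was at 1.34 to 1.51 CPM in PKO-1 and 2.41 to 5.54 elsewhere (-1.28, SE 0.17, adjusted p = 1.85e-05). Kdm6a was at 27.2 to 29.2 CPM against 54.9 to 80.7 (-1.21, SE 0.04, adjusted p = 4.04e-11). Ring1 was at 10.7 to 12.2 CPM in PKO-1, which overlapped TM6 at 10.3 to 11.4 (-0.71, SE 0.08, adjusted p = 2.60e-06). The maintenance methyltransferase Dnmt1 was at 386.4 to 397.6 CPM in PKO-1, below all other libraries at 441.0 to 517.3. Its change (-0.25, SE 0.04, adjusted p = 0.000162) was under the fold threshold and was not called, nor were those of Uhrf1, Dnmt3a, Tet1, Tet2 and Tet3. Whether any of these values bears on the missing transcripts was not tested.

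Of 8 tested germline genes, a class often held inactive by promoter methylation, 1 was called lower in PKO-1, against 13.0% of all tested genes (Stag3, at 0.454 to 0.676 CPM against 0.624 to 6.87, which overlap) and 0 higher by edgeR. At an unadjusted p below 0.05 edgeR had 2 lower, Stag3 and Taf9b, and 0 higher, and DESeq2 also called 1 lower and 0 higher. The median log2 fold change of the 8 was -0.14. Of 5 genes of riboflavin uptake and flavin synthesis (median -0.16), Slc52a3 was called lower, at 0 counts in PKO-1, 0.449 to 0.925 CPM in TM6, 2.26 to 2.54 in rho0 and 5.95 to 7.29 in PKO-6.

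By symbol family, 1 member was a solute carrier (Slc1a6) and 1 (Klf12) had a symbol of the developmental transcription factor list, which goes by symbol beginnings and so misses Lmx1b, and no member was among the zinc finger Zfp genes, histocompatibility genes, xenobiotic enzymes, G protein coupled receptors, junction genes, ion channels, or unnamed and noncoding genes. The tested genes of these families other than the members were called lower in PKO-1 for 47 of 243 solute carriers, 25 of 125 developmental factors, 42 of 356 zinc finger genes, 9 of 20 histocompatibility genes, 11 of 67 xenobiotic enzymes, 9 of 55 receptors, 11 of 40 junction genes, 15 of 73 ion channels and 106 of 1005 unnamed and noncoding genes. They were called higher for 16, 30, 29, 0, 13, 7, 8, 18 and 77 in the same order. Over all tested genes 13.0% were called lower and 9.47% higher, so that the zinc finger genes and the unnamed and noncoding genes had shares called lower under that of all genes, and the other families had shares above it, the histocompatibility and junction genes by the most. The developmental factors, xenobiotic enzymes, receptors, junction genes and ion channels also had shares called higher above that of all genes. Of the lower calls, 5 of the 9 histocompatibility genes and 5 of the 11 junction genes had all PKO-1 libraries below the others. These shares were not tested. For the histocompatibility genes, 4 were higher and 11 lower at an unadjusted p below 0.05 in edgeR, and DESeq2 called 0 higher and 10 lower.

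Genes that act with a member or belong to its gene family, here called partner genes, were gathered into 1 list for each member after the members were known. The lists so mix paralogs, such as the Galnt, Cers and Slc1a genes, with genes of the same pathway. Of the 79 tested, 7 were called lower and 17 higher in PKO-1 against the mean of the other lines, with a median log2 fold change of 0.09, where 13.0% and 9.47% of all tested genes were called lower and higher. The share called higher was thus above that of all genes and the share called lower under it. In 10 of the 17 higher ones the PKO-1 libraries also lay above all 9 others, and in 3 of the 7 lower ones below them, which was so for 5.55% and 7.64% of all tested genes. The 3 were Inhba, above, Galnt12, a GalNAc transferase, at 0.0865 to 0.122 CPM in PKO-1 and 0.4997 to 4.11 elsewhere (-4.18, SE 0.20, adjusted p = 1.06e-09), and Wnt7a, which acts upstream of Lmx1b in the limb, at 0.0732 to 0.327 CPM against 0.510 to 15.03 (-3.87, SE 0.28, adjusted p = 5.98e-08). The other lower calls were Galnt3, Adap1, Slc1a5 and Fat2, where PKO-1 overlapped or exceeded at least 1 other line.

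The list for Wbscr17 held 13 tested genes, of which 6 were called higher and 2 lower. They were GalNAc transferases and also C1galt1 and C1galt1c1, which are not. C1galt1c1 was among those called higher (0.54, SE 0.10, adjusted p = 0.000244), although its level in PKO-1 was below that in TM6. Its mean was 10.4 CPM in PKO-1, 20.4 in TM6, 3.65 in rho0 and 5.35 in PKO-6. Galnt18 rose, at 28.4 to 33.5 CPM against 2.43 to 6.79 (2.81, SE 0.10, adjusted p = 3.86e-11). Galnt1 was at 184.6 to 201.3 CPM against 104.4 to 129.2 (0.72, SE 0.05, adjusted p = 1.96e-08). Among 11 microfibril and elastic fibre genes 5 were called higher and 0 lower by edgeR, as by DESeq2. Of these 5 PKO-1 lay above all 9 other libraries only for Ltbp3 and Eln, Ltbp3 at 438.1 to 522.4 CPM against 268.5 to 389.7 and Eln at 0.238 to 0.502 against 0 to 0.168. The other calls were Fbn1, Ltbp2 and Ltbp4. In PKO-1 Fbn1 and Ltbp2 were at means of 48.4 and 11.1 CPM, below TM6 at 212.7 and 41.1. Ltbp4 was at 98.0 CPM in PKO-1, below rho0 at 267.8. Ltbp1, at 646.6 to 685.2 CPM against 444.2 to 566.1, also lay above all 9 but was just under the fold threshold (0.498, SE 0.05, adjusted p = 7.28e-07). In edgeR 3 of the 11 had a negative fold change with an unadjusted p below 0.05, which were Mfap2, Mfap5 and Efemp2. Of 7 activin and inhibin genes, Tgfbr3, the inhibin co-receptor betaglycan, was called higher at 214.5 to 222.9 CPM against 56.1 to 130.9 (1.50, SE 0.04, adjusted p = 6.60e-12), and so was Fst, at 3.44 to 4.23 CPM against 0.144 to 3.41 (1.85, SE 0.18, adjusted p = 1.05e-06). The lists for Eid2, Klf12 and Apobec3, with 5, 3 and 2 tested genes, held 0 calls in edgeR and in DESeq2. At an unadjusted p below 0.05 edgeR had 2 higher and 2 lower in the list for Eid2, 1 higher in that for Klf12 and 0 in that for Apobec3. In the lists for Arap2, Lmx1b, Cers4, Slc1a6 and Fjx1, 2, 0, 1, 0 and 1 genes were called higher and 1, 1, 0, 1 and 1 lower, of 9, 3, 9, 4 and 4 tested. DESeq2 differed in the lists for Wbscr17 (5 higher and 2 lower), Lmx1b (0 higher and 2 lower) and Fjx1 (1 higher and 0 lower). Its counts in the other lists were those of edgeR.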

How the data were processed

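After ribosomal RNA depletion the authors prepared libraries that keep strand, merged the reads of 2 technical libraries per sample, and estimated transcript abundance with RSEM 1.2.25 on the RefSeq annotation of mm10 (GRCm38). Whether strand was used in the counting was not given in the sources used here. The deposited gene table holds RSEM expected counts, of which 12.5% were not whole, and they were rounded for the tests. The deposited transcript files hold expected counts, transcript lengths and, as normalized by the authors, TPM. Gene positions came from the same files, and promoter sequences from RefSeq (GRCm38.p6), matched by gene and by start position.

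The 12 genes, the lists and the rules were chosen with earlier results of these data known, and the lists of partner genes were made after the members were known. All 12 members, the called neighbours and the genes nearest each cutoff are named with values. Of the other neighbours and of the called genes of the lists only some are named. A list gene that is not named may therefore have been called. Genes were tested with edgeR 4.0.16 (glmQLFit and glmQLFTest, TMM, minimum count of 10, Benjamini-Hochberg over 14026 genes, biological coefficient of variation 0.0837) in 1 fit of the 4 lines, where the study had fitted pairs with DESeq2. The thresholds were those of the study. The members' PKO-1 values were used by the rule and were not tested. Intervals and floors cover counting error only. The fit was tested on simulated counts. Alternatives were DESeq2 1.42.0, its size factors, no filter, a fold threshold of 1, Rn45s left out, PKO-1 left out, a replicate block (the labels give only numbers, but same-numbered TM6 and PKO-6 libraries had deviations that correlated by 0.227, 0.228 and 0.175), each library left out, and other cutoffs of the rule. Software was R 4.3.3 and Python 3.11.15. Columns of comparisons made by the authors were not among the files used.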

Additional observations from a re-analysis of the deposited data

Results flagged for a closer look

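The difference of rho0 and PKO-6 in their change from TM6 was tested directly as PKO-6 against rho0 in edgeR, and 7 of the 12 genes were called. These were Arap2 (log2 fold change -4.71), Fbn2 (-4.56), Dcp1b (-3.06), Inha (-1.44), Cers4 (-0.88), Wbscr17 (-0.56) and Klf12 (1.26), the last being the only one higher in PKO-6. Over all tested genes 8.16% were called lower and 13.3% higher in this comparison. With 3 libraries per line no test for a single outlying library was made.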

How the results depend on the processing

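Between 6 and 8 of the 12 genes were called between rho0 and TM6 over the alternatives tried, between 7 and 9 between PKO-6 and TM6, and between 5 and 7 between PKO-6 and rho0. With 1 library left out at a time, the counts were 8 in every case, 8 to 9 and 6 to 7, the neighbours called ran from 5 to 7, the silencing machinery from 5 to 6, the germline genes stayed at 1, and the rule found 12 to 17 genes. With an absolute log2 fold change above 1, 3 in place of 7 neighbours and 2 in place of 5 genes of the silencing machinery were called in PKO-1, because fewer genes pass a higher threshold. The number of members was set by the cutoffs, with 4 genes at 0.05 and 1 CPM (Arap2, Cers4, Eid2 and Klf12), 26 at 0.2 CPM in PKO-1, which include all 12, and 3 at 0 counts in PKO-1. It was 10, of which 9 are members, with Rn45s kept in the sum or with TMM scaling, where C130021I20Rik entered and Dcp1b, Fjx1 and Inha left. Of 648 refits of single genes in single comparisons, 641 kept their direction where called and their side of the threshold, and the 7 that lost it were the calls of Arap2 and Wbscr17 given with their comparisons. The correlation of deviations of same-numbered libraries ran from -0.342 to 0.228, with 10 of 18 over 0.1, and 4 of 12 libraries correlated best with their own number. Between TM6 and PKO-6 all 3 were over 0.1, which was so for no other 2 lines. In a fit with the replicate number as a block, 8, 9 and 7 members, 7 neighbours, 5 genes of the silencing machinery and 1 germline gene were called, so the block changed no count of calls, that between PKO-6 and TM6 included. At 4.10 to 4.62 counts per 0.1 CPM, a level in PKO-1 below that could not be resolved further at this depth.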

Other observations

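With the PKO-1 cutoff set at 0.2 CPM and nothing else changed, 14 further genes came in, and their PKO-1 values are a description only. The genes named with values here were chosen after their values were seen. Rin3, a guanine nucleotide exchange factor for Rab5, was at 0.108 to 0.122 CPM in PKO-1, 15.2 to 15.7 in TM6, 7.17 to 7.74 in rho0 and 17.8 to 20.2 in PKO-6. Ebf1, an early B cell transcription factor also active in mesenchymal cells, was at 0.0244 to 0.175 CPM in PKO-1 and at 3.99 to 10.9 in the others. B4galt4, a galactosyltransferase, was at 0.0216 to 0.153 CPM in PKO-1 and at 2.42 to 6.44 in the others. In all 3 the PKO-1 libraries lay below the 9 others, as the looser cutoff requires.

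Others of the 14 had 1 line far from the rest as well. Zfp503 was at 16.1 to 20.4 CPM in TM6, 0.583 to 0.680 in rho0, 1.50 to 1.63 in PKO-6 and 0.130 to 0.153 in PKO-1. Mycl was at 6.83 to 8.21 CPM in PKO-6 against 0.526 to 1.68 in TM6 and rho0 and 0.0218 to 0.108 in PKO-1, and Pygl, the liver glycogen phosphorylase, at 7.06 to 7.80 CPM in PKO-6 against 0.653 to 1.88 in TM6 and rho0 and 0.131 to 0.195 in PKO-1. The remaining genes were C130021I20Rik, Ctsc, Doc2b, Ppp1r3d, Tfcp2l1, Vangl2, Zfp709 and Zscan22.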
